A study of Saccharomyces cerevisiae with 21 samples.

Results

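Poly(A) RNA of glucose-starved budding yeast was compared between cells with altered forms of Nab2, in 4 of the 21 libraries of the study. These were the whole cell libraries titled as stressed, 2 from the Nab2 IDR mutant and 2 from the Nab2 interface mutant, chosen by title. Both strains are haploid BY4742 (MAT alpha, his3Δ1 leu2Δ0 lys2Δ0 ura3Δ0) and carry the change at the NAB2 locus itself, fused to a green fluorescent protein tag with the HISMX marker. The IDR mutant lacks residues 104 to 263 (ΔQQQP-ΔRGG) and carries a viral SV40 nuclear localization signal before a yEGFP tag, whereas the interface mutant has the single substitution F450A and a tag labelled GFP. The deletion and the added signal therefore come together in every comparison below, and their parts cannot be told apart. Poly(A) RNA was selected from total RNA with oligo-dT beads and sequenced with a strand-specific kit. Cells grew to mid-log phase in synthetic complete medium with 2% glucose, were washed and were kept for 24 h without glucose. The other libraries used were from the same strains before starvation (2 of each), from a wild type with NAB2-yEGFP-HISMX (2 unstressed and 2 starved whole cell libraries), and from nuclear extracts of all 3 strains after starvation. The labels do not say that replicates came from separate cultures, and p-values therefore measure no more than the spread among these libraries, possibly a technical one.

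Nab2 is a nuclear RNA-binding protein that coats poly(A) tails through its zinc fingers, protects new messenger RNA from decay, restrains the length of the tail and hands messenger RNA to the export machinery at the nuclear pore. Its intrinsically disordered region (IDR) is a low-complexity stretch rich in glutamine followed by an arginine- and glycine-rich stretch. When glucose runs out, yeast switches off ribosome production, raises stress and storage genes under the activators Msn2 and Msn4, and turns to other carbon and nitrogen sources. The comparison asks where the messenger RNA of starved cells differs between a Nab2 without its disordered region and a Nab2 with a changed residue in its zinc finger region.

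The altered positions are shown first, from the reference genome (assembly R64, strain S288C) on the minus strand of chromosome VII, where NAB2 (YGL122C) runs from 278946 to 280523. Each stretch is written 5′ to 3′ in the sense of the gene, with the codon at the named residue in capitals.
NAB2 residue 104, first deleted, 280182 to 280244: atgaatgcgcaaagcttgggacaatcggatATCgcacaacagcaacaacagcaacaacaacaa
NAB2 residue 263, last deleted, 279705 to 279767: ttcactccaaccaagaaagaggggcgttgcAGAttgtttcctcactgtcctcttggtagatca
NAB2 residue 450, substituted, 279144 to 279206: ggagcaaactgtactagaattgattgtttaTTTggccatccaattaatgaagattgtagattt
The deletion spans 160 residues and holds 47 glutamine, 15 glycine and 10 arginine codons. It removes 480 bases, or 30.4% of the 1578 bases over which NAB2 reads were counted. NAB2 stood at 133 and 123.2 CPM (counts scaled to a common library total) in starved IDR mutant cells against 234 and 356 in starved interface mutant cells, so the libraries did not overlap. The log2 fold change of the IDR mutant over the interface mutant was -1.13 ± 0.39 (SE; edgeR adjusted p = 0.0725) and did not pass. Scaled to the bases that the deletion leaves, the levels in the IDR mutant were 191.1 and 177.1 CPM. Before starvation NAB2 stood at 205 and 225 CPM in the IDR mutant against 254 and 208 in the interface mutant. A substitution leaves the feature whole, so NAB2 counts check the strain labels only weakly.

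The 4 libraries held 5248248 and 5323510 counts (IDR mutant) and 7040579 and 7214702 counts (interface mutant). The IDR mutant libraries had a Spearman correlation across genes of 0.993 with each other, with 2 genes over 2-fold apart. The interface mutant libraries correlated at 0.966, with 212 genes over 2-fold apart. Their replicate 1 stood at 0.982 to both libraries of starved wild type, with 60 and 62 genes over 2-fold apart. Replicate 2 stood further from starved wild type, at 0.96 and 0.955, with 303 and 332 such genes. Between the mutants the correlations were 0.927 to 0.942. The MAT alpha label was checked with mating genes. STE3, the a-factor receptor gene that alpha cells use, stood at 120.4 and 111 CPM in the IDR mutant against 109 and 126 in the interface mutant. Of the parent's marker genes, LEU2, LYS2 and URA3 had counts too low for a test, whereas HIS3 was counted, at 8.19 and 16.3 CPM in the IDR mutant against 15.5 and 20.7 in the interface mutant (-0.48 ± 0.37, edgeR adjusted p = 0.391, not called). Of the 12 whole cell libraries, which the fit used together, unstressed wild type replicate 1 stood apart: ribosomal protein genes took 34% of its counts and 20% to 21.1% in the other unstressed libraries. It is in no comparison below but adds to the estimate of the spread, so counts of the starved comparison and of the interaction are also given without it. The nuclear libraries of the mutants did not group by their labels, as given beside the nuclear test.

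Across the transcriptome the mutants parted widely. Of 5853 genes tested, 1184 (20.2%) were called at an adjusted p under 0.05: 607 (10.4%) were higher in the IDR mutant and 577 (9.86%) were lower. By list, 22 of 46 general stress genes and 16 of 39 nitrogen genes were higher, and 46 of 114 ribosome biogenesis genes and 36 of 137 ribosomal protein genes were lower. The higher genes exceeded 2-fold in 284 cases and the lower genes in 172, and the median over all genes was 0.02 on the log2 scale. Without unstressed wild type replicate 1 the count was 2724, among them all 1184. The count was 402 without IDR mutant replicate 1, 207 without IDR mutant replicate 2, 614 without interface mutant replicate 1 and 836 without interface mutant replicate 2. In all 4 of these fits 195 genes kept their call, of which 115 were higher. The 2 libraries of 1 mutant did not overlap those of the other in 4071 genes (69.6%), so a lack of overlap is usual here and is given below only as a description.

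**Figure D1:**
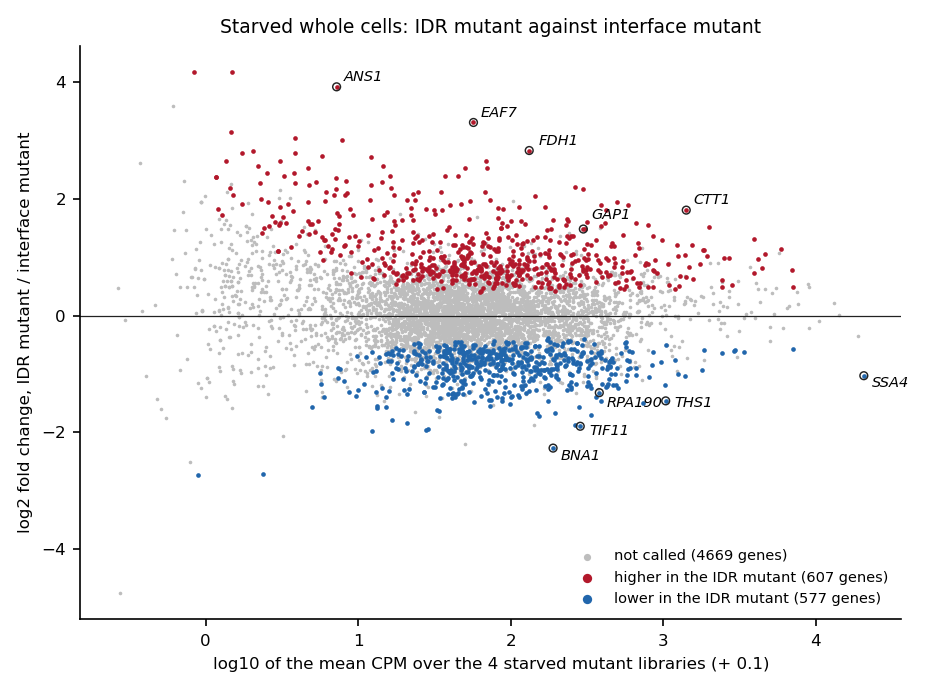
Each point is 1 of 5853 genes, with its mean level over the 4 starved mutant libraries on the horizontal axis (log10 CPM) and its log2 fold change, IDR mutant over interface mutant, on the vertical axis. Red points are the 607 genes called higher in the IDR mutant and blue points the 577 called lower, and 10 genes named in the text are circled.

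The largest differences upward included metabolic enzymes. FDH1, formate dehydrogenase, stood at 238 and 222 CPM in the IDR mutant against 29.7 and 38.3 in the interface mutant (2.83 ± 0.26, edgeR adjusted p = 0.000985). PDC6, a minor pyruvate decarboxylase, stood at 19.8 and 21.8 against 2.84 and 3.74 CPM (2.73 ± 0.34, edgeR adjusted p = 0.00183). In both genes each IDR mutant library lay several-fold above each interface mutant library. TKL2, a minor transketolase of the pentose phosphate pathway, differed by 2.52 ± 0.48 and was called in 2 of the 4 fits that left out a library. COX26, a small protein of the respiratory supercomplexes, was at 104 and 133 against 22.4 and 20.9 CPM (2.53 ± 0.28). ANS1 had the largest change among genes above 10 CPM in a group, with 13.7 and 13.0 against 0.568 and 1.25 CPM (3.93 ± 0.53). ANS1 stood at 0.726 and 3.12 CPM in the 2 starved wild type libraries, a spread wider than between the libraries of either mutant.

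In EAF7, ASF1 and some other genes the interface mutant libraries differed from each other. EAF7, a subunit of the NuA4 histone acetyltransferase, stood at 111 and 95.0 CPM in the IDR mutant, against 17.5 and 4.30 in the interface mutant and 11.8 and 21.2 in starved wild type. ASF1, a histone chaperone, stood at 16.2 and 11.1 CPM in the IDR mutant, against 2.84 and 0.693 in the interface mutant and 3.81 and 4.78 in starved wild type. Both were higher in the IDR mutant (3.31 ± 0.52 and 3.02 ± 0.48, edgeR adjusted p = 0.00376 and 0.00411) and kept the call with each library left out. The groups did not overlap, but interface mutant replicate 2 lay well below replicate 1, as it also did for RRP14, MFT1 and RED1. RRP14, a ribosomal RNA processing gene, had 15.8 and 3.33 CPM in interface mutant replicates 1 and 2 and 49.2 and 29.9 in the IDR mutant. MFT1, a subunit of the THO export complex, had 16.6 and 3.05 against 44.6 and 29.7 CPM, and RED1, of the meiotic chromosome axis, 8.81 and 3.46 against 26.3 and 26.7. These 3 genes were called, and they kept the call in 2, 2 and 3 of the 4 fits that left out a library. In these 5 genes the difference between the mutants was thus largest against interface mutant replicate 2, and without that library EAF7 and ASF1 were still called.

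The largest differences downward were spread over metabolism, translation and protein tagging. BNA1, an enzyme of NAD synthesis from tryptophan, stood at 67.6 and 56.9 CPM in the IDR mutant against 364 and 269 in the interface mutant (-2.27 ± 0.44, edgeR adjusted p = 0.0092). TIF11, translation initiation factor eIF1A, stood at 124 and 108 against 506 and 404 CPM (-1.90 ± 0.28, edgeR adjusted p = 0.00284). ETT1, a translation termination factor, stood at 77.4 and 59.4 against 256 and 217 CPM (-1.72 ± 0.20, edgeR adjusted p = 0.00143). In these 3 genes the IDR mutant libraries lay close together and far below both interface mutant libraries. Starved wild type, not tested here, stood at 352 and 326 CPM for BNA1, 516 and 502 for TIF11 and 256 and 251 for ETT1. MSH5, which promotes meiotic crossovers, was lower by a similar amount (-1.96 ± 0.23) and stood at 22.0 and 23.3 against 50.5 and 49.7 CPM before starvation too. PHO84, the high-affinity phosphate transporter, was lower, at 3.05 and 6.39 CPM against 16.6 and 22.9 (-1.98 ± 0.39), while PHO89, another phosphate transporter, was higher, at 422 and 439 against 94.5 and 102 CPM (2.21 ± 0.21). YRB1, which binds the transport GTPase Ran (-1.70 ± 0.35), RPC34, a subunit of RNA polymerase III (-1.63 ± 0.33), and UBC12, a conjugating enzyme of the ubiquitin-like protein Rub1 (-1.84 ± 0.38), were also lower. Among the 15 largest falls, only MSH5, TIF11 and ETT1 kept the call with each of the 4 libraries left out in turn. BNA1, PHO84, YRB1, RPC34 and UBC12 did not, and ALF1 and DMO2 lost it with any 1 library left out.

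**Figure D2:**
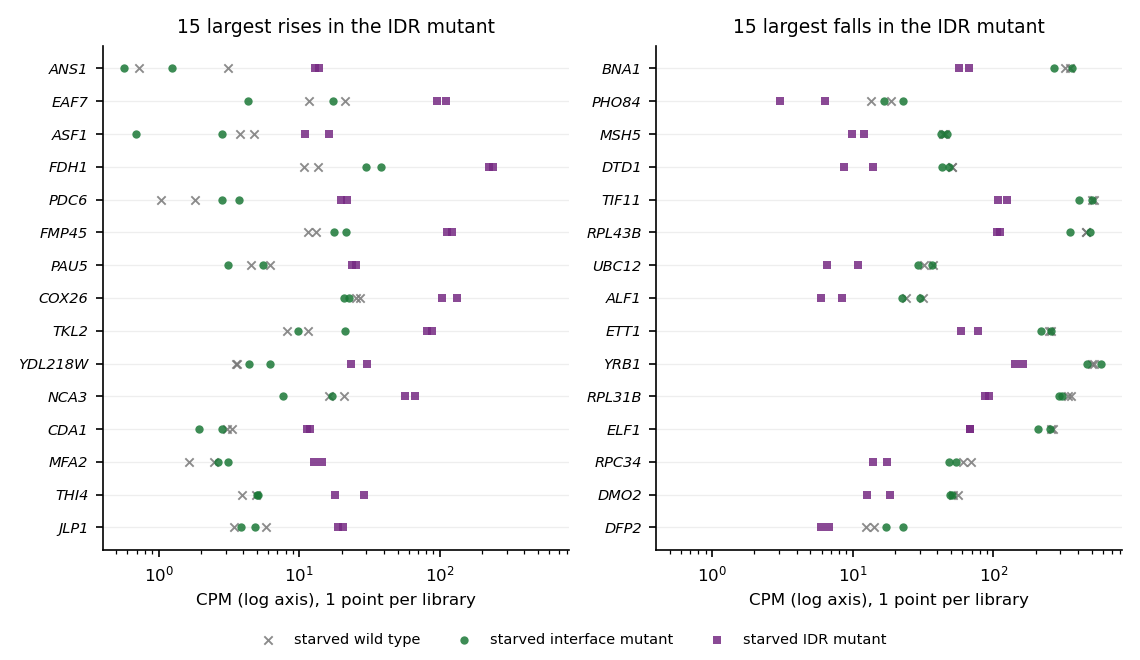
Levels of the 15 genes with the largest rises (left) and the 15 with the largest falls (right) in the IDR mutant, in CPM on a log axis with 1 point per starved whole cell library. Squares (IDR mutant) stand apart from circles (interface mutant) in each gene, as the choice of genes required, and crosses show starved wild type for orientation.

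Ribosome assembly genes were lower in part in the IDR mutant. Of 114 ribosome biogenesis genes, 46 were lower and 2 higher, with a median log2 fold change of -0.57 against 0.02 over all genes. RRP5, needed for cleavage of the ribosomal RNA precursor, stood at 153 and 129 CPM in the IDR mutant against 375 and 332 in the interface mutant (-1.25 ± 0.17, edgeR adjusted p = 0.00246). NUG1, a nucleolar GTPase of the large subunit, stood at 111 and 94.5 against 259.9 and 233 CPM (-1.19 ± 0.15, edgeR adjusted p = 0.00204). RRP8, a methyltransferase for ribosomal RNA, stood at 40.8 and 30.6 against 130.2 and 89.8 CPM (-1.55 ± 0.21, edgeR adjusted p = 0.00241). The IDR mutant libraries lay below the interface mutant libraries in all 3. The higher members were RRP14, described above, and the kinase gene RIO1 (0.88 ± 0.18). Other members did not pass, among them NOP1 at -0.60, NSR1 at 0.32 and SOF1 at 0.26. The lower count was 6 to 48 with 1 compared library left out and 65 without unstressed wild type replicate 1. Of the 46 lower and 2 higher genes, 6 kept their call with each library left out, and the list's median then ranged from -0.72 to -0.44. Together the 114 genes took 0.713% and 0.603% of counts in the IDR mutant, against 1.23% and 0.869% in interface mutant replicates 1 and 2.

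RNA polymerase I, which transcribes the ribosomal RNA precursor, was lower in its largest subunit. RPA190 stood at 216 and 203 CPM in the IDR mutant, against 570.4 and 533 in the interface mutant and 605 and 604 in starved wild type. Its log2 fold change was -1.32 ± 0.11 (edgeR adjusted p = 0.000985), with libraries of each mutant close together. RPA43, another subunit, stood at 24.2 and 25.4 against 70.6 and 59.9 CPM (-1.32 ± 0.14, edgeR adjusted p = 0.00113). Of 15 genes for polymerase I and its initiation factors, 4 were lower (2 to 3 with 1 compared library left out) and 1, RRN7, was higher (0.70 ± 0.17). RPA135, the second largest subunit, was lower (-0.92 ± 0.23), and RPA14 and RRN3 stood at 0.65 and 0.45 without passing. The RPA190 promoter, 300 bases before the start codon on chromosome XV, 960687 to 960986, plus strand, is shown because it holds both motifs that mark ribosome biogenesis promoters, PAC (GATGAG) and RRPE (AAATTTT), in capitals.
RPA190 promoter: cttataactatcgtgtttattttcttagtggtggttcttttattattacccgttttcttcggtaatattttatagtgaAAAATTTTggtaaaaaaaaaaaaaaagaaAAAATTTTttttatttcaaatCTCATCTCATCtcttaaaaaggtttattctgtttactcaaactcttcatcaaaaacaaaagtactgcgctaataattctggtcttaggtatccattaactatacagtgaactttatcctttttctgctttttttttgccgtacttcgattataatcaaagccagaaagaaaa
It has 2 matches to PAC and 4 to RRPE, counting both strands, so that a stretch that reads the same on both strands counts once for each. Over such windows, PAC was found in 30.1% of 575 promoters of lower genes, 14.2% of 592 promoters of higher genes and 18.8% of all 5658. RRPE was found in 39.8%, 17.4% and 25.2% in the same order, and the list of ribosome biogenesis genes held them in 91.2% and 94.7% of promoters. These shares describe letters in a window and not binding.

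Ribosomal protein genes were lower in part. Of 137 genes, 36 were lower and none higher, with a median of -0.65, and 122 of the 137 had a negative log2 fold change. The lower count was 5 to 22 with 1 compared library left out and 104 without unstressed wild type replicate 1. RPL36B stood at 265 and 280.5 CPM in the IDR mutant against 622 and 598 in the interface mutant (-1.09 ± 0.12, edgeR adjusted p = 0.00132). RPL16A stood at 95.3 and 99.9 against 228 and 248 CPM (-1.21 ± 0.14, edgeR adjusted p = 0.00136). RPS26B stood at 299.5 and 308 against 562 and 619 CPM (-0.88 ± 0.12, edgeR adjusted p = 0.00246). In each of these the IDR mutant libraries were nearly equal and lay below the interface mutant. Most of these genes have a near-identical copy, whose reads the counting may have split, so single paralogs are uncertain. The whole list took 3.9% and 3.95% of counts in the IDR mutant, against 6.23% and 5.68% in the interface mutant, and 6.43% and 6.19% in starved wild type. With each library left out, 4 members kept the call, and PAC and RRPE were found in 13.1% and 29.2% of the promoters of this list. Of the 577 lower genes, 51 (8.84%) have introns, against 9 of the 607 higher genes (1.48%) and 4.61% of all genes tested. Among 178 intron-containing genes outside the ribosome, 24 (13.5%) were lower and 9 (5.06%) higher, with a median of -0.05. Of all genes tested, 9.86% were lower and 10.4% higher. With 1 compared library left out, 2 to 15 of these intron-containing genes were lower and 1 to 6 higher.

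Genes that charge and modify transfer RNA and start translation were also lower in part. These rosters were drawn up after the values were seen, so their counts are a description of known members and no independent evidence. Of 21 cytosolic aminoacyl-tRNA synthetase genes, 15 were lower and all 21 had a negative log2 fold change (median -0.89). SES1, for serine, stood at 268 and 230.5 CPM in the IDR mutant against 605 and 612 in the interface mutant (-1.22 ± 0.13, edgeR adjusted p = 0.00113). THS1, for threonine, stood at 565 and 499 against 1639 and 1444 CPM (-1.46 ± 0.26, edgeR adjusted p = 0.00661). GRS1, for glycine, stood at 356 and 339 against 787 and 809 CPM (-1.12 ± 0.14, edgeR adjusted p = 0.00176). The IDR mutant libraries lay below the interface mutant libraries in all 3 genes. At the other end stood TYS1, for tyrosine, at -0.02, and FRS2, a subunit for phenylalanine, at -0.11, which did not pass. The calls of 6 synthetase genes held with each library left out.

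Of 24 translation initiation factor genes, 11 were lower and none higher (median -0.70). Besides TIF11, TIF35 of eIF3 stood at 207 and 181 CPM in the IDR mutant against 512 and 451 in the interface mutant (-1.24 ± 0.15, edgeR adjusted p = 0.00183). TIF3, eIF4B, stood at 209 and 177 against 564 and 502 CPM (-1.39 ± 0.19, edgeR adjusted p = 0.00242). Both differences exceeded the spread between libraries of either mutant. Among those that did not pass, TIF1 and TIF2, near-identical genes of the helicase eIF4A, stood at -0.13 and 0.05, and SUI1 at 0.13. Of 39 tRNA modification genes, 12 were lower and 1 higher (median -0.52). PUS7, a pseudouridine synthase, stood at 47.1 and 51.5 against 151 and 146 CPM (-1.51 ± 0.13, edgeR adjusted p = 0.000985). ELP3, the catalytic subunit of the Elongator complex, stood at 39.4 and 37.0 against 100.1 and 101 CPM (-1.32 ± 0.13, edgeR adjusted p = 0.000985), and in both genes the libraries of each mutant were close together.

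Proteasome genes were lower in part. Of 35 genes, 9 were lower and 1 higher (median -0.46), and the 9 included all 6 ATPase subunits of the base, RPT1 to RPT6. RPT4 stood at 338 and 290.0 CPM in the IDR mutant against 688 and 628 in the interface mutant (edgeR adjusted p = 0.0019), and RPT2 differed by -0.86 ± 0.17. The lower count was 1 to 5 with 1 compared library left out and 22 without unstressed wild type replicate 1. RPN4, the transcription activator of proteasome genes, was the higher one (0.46 ± 0.12). Of 26 nuclear exosome and surveillance genes, 4 were lower (0 to 3 with 1 compared library left out), among them the helicase gene MTR4 (-0.94 ± 0.15) and the nuclease gene DIS3 (-0.64 ± 0.13). The pathway in which Nab2 acts was represented by 44 export and poly(A)-binding genes. Of these, 7 were lower (1 to 5 with 1 compared library left out) and 2 higher, and their median of -0.07 was close to all genes. The lower shares were 25.7% (proteasome), 15.4% (exosome and surveillance) and 15.9% (export), against 9.86% of all genes tested. The higher shares were 2.86%, 3.85% and 4.55% in the same order, against 10.4%. DBP5, the helicase that releases messenger RNA at the pore, was lower (63.8 and 62.0 against 114 and 109 CPM, -0.75 ± 0.13), as were RNA15 and HRP1, cleavage and polyadenylation factors (-0.76 ± 0.13 and -0.86 ± 0.16). MEX67, the export receptor, stood at -0.03, PAB1, the main cytoplasmic poly(A)-binding protein, at 0.02, and KAP104, the importer of Nab2, at -0.49, and none of the 3 passed.

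**Figure D3:**
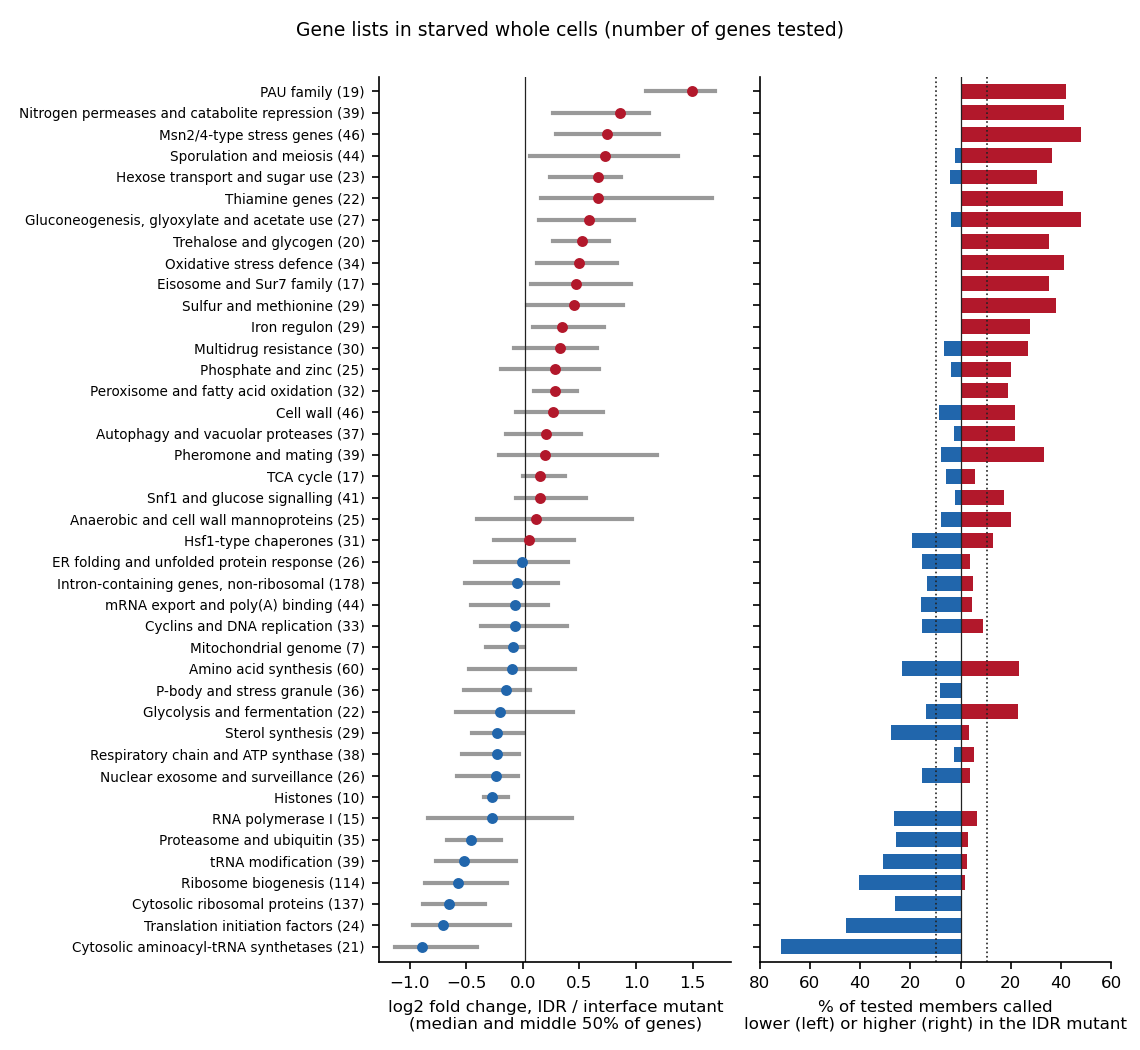
For each gene list, the left panel gives the median log2 fold change of its tested members (point) with the middle 50% of genes (bar), and the right panel the percent of members called lower (blue, left) or higher (red, right). The dotted lines mark the 9.86% lower and 10.4% higher of all genes tested, and the number after each name is the number of genes tested.

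General stress genes were higher in part in the IDR mutant. Of 46 genes of the Msn2/4 type, 22 were higher and none lower (median 0.75), and 9 kept their call with each library left out. The higher count was 9 to 20 with 1 compared library left out and 31 without unstressed wild type replicate 1. CTT1, cytosolic catalase, stood at 2117 and 2233 CPM in the IDR mutant against 551 and 755 in the interface mutant (1.81 ± 0.25, edgeR adjusted p = 0.00264). DDR2, a multistress gene, stood at 849 and 1107 against 331 and 353 CPM (1.59 ± 0.16, edgeR adjusted p = 0.000985). TFS1, which inhibits the vacuolar carboxypeptidase Y, stood at 339 and 365 against 139 and 149 CPM (1.37 ± 0.15, edgeR adjusted p = 0.00117). The groups were separate in all 3, and starved wild type stood at 315 and 319.6 CPM for DDR2 and 573 and 575 CPM for CTT1. Members that did not pass included HSP12 (1.07), HSP26 (0.18), TPS1 (0.25) and STF2 (-0.70). The CTT1 promoter, 300 bases before the start codon on chromosome VII, 654334 to 654633, plus strand, is shown with its match to the stress response element STRE (AGGGG on either strand) in capitals.
CTT1 promoter: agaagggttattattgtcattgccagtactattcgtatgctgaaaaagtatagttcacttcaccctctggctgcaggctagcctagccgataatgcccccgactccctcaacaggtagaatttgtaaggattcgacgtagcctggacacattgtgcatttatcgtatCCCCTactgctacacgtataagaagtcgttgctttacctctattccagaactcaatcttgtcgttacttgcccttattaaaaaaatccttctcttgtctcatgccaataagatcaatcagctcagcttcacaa
STRE was found in 76.1% of the promoters of the Msn2/4-type list, 33.1% of those of higher genes, 17.6% of those of lower genes and 22.5% of all.

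Single chaperone genes differed in both directions. Of 31 Hsf1-type genes, 4 (12.9%) were higher and 6 (19.4%) lower, against 10.4% and 9.86% of all genes tested. The share of higher genes was thus near that of all genes, and the list's median of 0.06 was close to 0.02 over all genes. The higher count was 2 to 4 with 1 compared library left out and 9 without unstressed wild type replicate 1, and the lower count was 0 to 2 with 1 compared library left out and 8 without unstressed wild type replicate 1. SSA4, an inducible Hsp70, stood at 13544 and 12646 CPM in the IDR mutant, against 28827 and 27475 in the interface mutant and 21179 and 22377 in starved wild type. Its log2 fold change was -1.03 ± 0.16 (edgeR adjusted p = 0.00374). Its relative SSA3 had the opposite sign, with 343 and 362 against 109.8 and 130.0 CPM (1.63 ± 0.21, edgeR adjusted p = 0.00204). HSC82, a constitutive Hsp90, was lower (-0.62 ± 0.14), whereas HSP82, HSP104 and SSA1 stood at 0.41, 0.01 and 0.03 without passing.

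Oxidative stress defence and storage genes were higher in part. Of 34 oxidative stress genes, 14 were higher and none lower (median 0.50). The higher count was 4 to 12 with 1 compared library left out and 21 without unstressed wild type replicate 1. Besides CTT1, GTT2, a glutathione transferase, stood at 800.5 and 913 CPM in the IDR mutant against 413 and 467 (1.04 ± 0.14, edgeR adjusted p = 0.00246). CCP1, the mitochondrial cytochrome c peroxidase, stood at 5958 and 6425 against 2809.9 and 3487 CPM (1.05 ± 0.18, edgeR adjusted p = 0.00543). PRX1, the mitochondrial peroxiredoxin, was higher too (1.33 ± 0.22), while SOD1, GLR1 and the peroxisomal catalase gene CTA1 stood at 0.17, -0.33 and 0.46 and did not pass. The list took 6.64% and 6.99% of counts in the IDR mutant, against 4.47% and 5.17% in the interface mutant. Of 20 trehalose and glycogen genes, 7 were higher (3 to 6 with 1 compared library left out; median 0.52), led by GAC1, a regulatory subunit of the phosphatase that activates glycogen synthase (129 and 132 against 37.4 and 53.8 CPM, 1.59 ± 0.22). Of 17 eisosome and Sur7-family genes, 6 were higher (3 to 5 with 1 compared library left out). FMP45 of this family stood at 112 and 122 against 21.6 and 17.7 CPM (2.65 ± 0.21, edgeR adjusted p = 0.000718), but the eisosome core genes PIL1 and LSP1 stood at -0.13 and -0.01 and did not pass.

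Nitrogen permease and catabolism genes were higher in part. Of 39 permease and nitrogen catabolite repression genes, 16 were higher and none lower (median 0.85), and 9 kept the call with each library left out. The higher count was 9 to 15 with 1 compared library left out and 25 without unstressed wild type replicate 1. GAP1, the general amino acid permease, stood at 416 and 453 CPM in the IDR mutant against 155 and 172 in the interface mutant (1.49 ± 0.14, edgeR adjusted p = 0.000985). UGA4, the permease for gamma-aminobutyrate, stood at 178 and 175 against 45.9 and 55.9 CPM (1.87 ± 0.17, edgeR adjusted p = 0.000985). MEP1, an ammonium permease, stood at 169 and 178 against 52.0 and 67.2 CPM (1.62 ± 0.16, edgeR adjusted p = 0.000985). The mutants were well separated in these permeases, and the IDR mutant libraries were nearly equal. DAL7, the malate synthase of allantoin breakdown, stood at 757 and 808 against 224 and 203 CPM (1.95 ± 0.29). The permease genes AGP1, DIP5 and PTR2 were also higher and kept the call with each library left out. Some regulators and other permeases did not pass, among them GAT1 (1.16), TAT2 (-0.25) and GNP1 (-0.61). The DAL7 promoter, 300 bases before the start codon on chromosome IX, 414680 to 414979, minus strand, is shown with its matches to the GATA motif (GATAAG on either strand) in capitals, the element that nitrogen regulators bind.
DAL7 promoter: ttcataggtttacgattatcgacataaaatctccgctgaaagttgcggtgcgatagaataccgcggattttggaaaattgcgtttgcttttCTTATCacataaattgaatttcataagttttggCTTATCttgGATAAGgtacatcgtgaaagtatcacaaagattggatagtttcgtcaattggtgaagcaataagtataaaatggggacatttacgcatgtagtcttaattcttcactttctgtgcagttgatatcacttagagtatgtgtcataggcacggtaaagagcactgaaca
The window holds 3 matches. GATA was found in 41.0% of the promoters of the nitrogen list, 16.9% of those of higher genes, 11.5% of those of lower genes and 14.7% of all.

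Carbon source genes were higher in part. Of 27 gluconeogenic, glyoxylate cycle and acetate genes, 13 were higher and 1 lower (median 0.58), and of these 14 only ALD6 kept its call with each library left out. The higher count was 1 to 9 with 1 compared library left out and 18 without unstressed wild type replicate 1. ALD6, the cytosolic aldehyde dehydrogenase, stood at 7690.4 and 8189 CPM in the IDR mutant against 3541 and 4051 in the interface mutant (1.14 ± 0.16, edgeR adjusted p = 0.00265). ACS1 and ACS2, both acetyl-CoA synthetases, went opposite ways: ACS1 stood at 528 and 567 against 209.8 and 369 CPM (1.00 ± 0.24) and ACS2 at 178 and 189.9 against 288 and 353 (-0.73 ± 0.16). The key enzymes of the pathway differed among themselves, since PCK1 was higher (0.97 ± 0.28) and FBP1, ICL1 and MLS1 stood at -0.48, 0.44 and 0.17 without passing. Of 23 hexose transport and sugar use genes, 7 were higher (2 to 7 with 1 compared library left out) and 1 lower. The near-identical transporter genes HXT6 and HXT7, whose reads may have been split, were both higher (1.13 ± 0.13 and 1.21 ± 0.14), and the low-affinity transporter gene HXT3 was lower (-0.77 ± 0.18). Glycolytic isoenzymes also differed in direction. TDH1, the glyceraldehyde-3-phosphate dehydrogenase of resting cells, stood at 5263 and 5703 against 2273 and 2395 CPM (1.31 ± 0.17), whereas TDH2 was lower (-0.65 ± 0.15), as was ADH1 (-0.58 ± 0.15).

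Amino acid genes went both ways, with 14 of 60 higher and 14 lower (median -0.09). With 1 compared library left out, 2 to 9 were higher and 4 to 9 lower. The lower ones were biosynthetic: HIS7 stood at 52.2 and 47.1 CPM in the IDR mutant against 127 and 135 (-1.33 ± 0.13, edgeR adjusted p = 0.000985), and HIS4, ARO4 and ASN2 differed by -1.17 ± 0.13, -1.02 ± 0.12 and -0.99 ± 0.15. The higher ones were mixed and included lysine synthesis genes such as LYS20 (1.03 ± 0.23) as well as ARO10 and PUT1, which act in the breakdown of aromatic amino acids and of proline. PUT1 stood at 1373 and 1355 against 602 and 573 CPM (1.29 ± 0.18, edgeR adjusted p = 0.00267) and ARO10 differed by 1.15 ± 0.16. GCN4, the activator of amino acid synthesis, was itself higher (514 and 544 against 329 and 356 CPM, 0.70 ± 0.14). Of 29 sulfur and methionine genes, 11 were higher (3 to 7 with 1 compared library left out) and none lower (median 0.45), for example the sulfate transporter gene SUL2 (1.30 ± 0.17) and JLP1, a sulfonate dioxygenase (2.24 ± 0.34). Of 29 iron genes, 8 were higher (2 to 7 with 1 compared library left out) and none lower (median 0.35). TIS11, which targets messenger RNA of iron-using proteins for decay, stood at 179 and 186 against 60.1 and 69.6 CPM (1.57 ± 0.15), while the transporter genes FTR1 and SIT1 stood at 0.40 and 0.14 and did not pass. Of 22 thiamine genes, a roster drawn up after the values were seen, 9 were higher, led by THI7, the thiamine transporter (43.1 and 42.6 against 10.7 and 14.8 CPM, 1.82 ± 0.18). The counts of THI5, THI11, THI12 and THI13, near-identical copies, may be split.

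Genes of the cell surface, of mating and of meiosis, several of them at low levels, were higher in part. Of the 24 PAU genes, a near-identical subtelomeric family whose reads the counting may have divided, 19 had enough counts to be tested. Of these, 8 were higher and all 19 had a positive log2 fold change (median 1.49). PAU5 stood at 25.5 and 23.7 CPM in the IDR mutant against 3.12 and 5.54 in the interface mutant (2.57 ± 0.29, edgeR adjusted p = 0.00131). The higher count was 2 to 6 with 1 compared library left out and 9 without unstressed wild type replicate 1. Of 39 pheromone and mating genes, 13 were higher and 3 lower (5 to 8 with 1 compared library left out and 15 without unstressed wild type replicate 1, for the higher genes). Both strains are MAT alpha, yet the a-specific genes were higher in the IDR mutant: STE2, the alpha-factor receptor gene, stood at 17.9 and 19.0 against 5.25 and 7.07 CPM (1.65 ± 0.22, edgeR adjusted p = 0.00232). MFA2, an a-factor gene, stood at 12.8 and 14.5 against 3.12 and 2.63 CPM (2.31 ± 0.32, edgeR adjusted p = 0.00246), and MFA1 and BAR1 differed by 2.79 ± 0.49 and 1.83 ± 0.46. All 4 a-specific markers were thus called, at levels far below those of the alpha-factor gene MF(ALPHA)1, which was lower (177 and 179.6 against 345 and 316 CPM, -0.82 ± 0.15). Of 44 sporulation and meiosis genes tested, 16 were higher and 1 lower (median 0.72), and the higher count was 4 to 11 with 1 compared library left out and 19 without unstressed wild type replicate 1. IME1, the inducer of meiosis, stood at 97.0 and 85.7 against 40.2 and 39.9 CPM (1.26 ± 0.29) and SPO11 at 12.2 and 12.4 against 4.26 and 5.82 (1.36 ± 0.30), but the middle regulator NDT80 (0.11) and the spore genes SPS4 (-0.16) and DIT1 (1.10) did not pass. In bulk RNA, fewer cells of a type and less RNA per cell cannot be told apart.

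Before starvation fewer genes were called between the same mutants. This test was made only in the fit that includes unstressed wild type replicate 1, which adds to the spread, so few calls do not show equal levels. Their 4 unstressed libraries, which share none with the starved comparison, gave 11 of 5853 genes (0.188%) in the edgeR fit, all higher in the IDR mutant, and 381 genes at an unadjusted p under 0.05. They included DDR2, HXT6, HXT7, the stress genes HSP26 and HSP30, the meiotic gene RIM4 and the mating gene FUS2. DDR2 differed by 1.49 ± 0.18 before and 1.59 ± 0.16 after starvation, while HSP26 differed by 1.51 ± 0.17 before and 0.18 ± 0.16 after. Of the 607 genes higher after starvation, 75.8% had a positive difference before it, and of the 577 lower genes 33.3% did, against 50.9% of all genes. The median differences of the 2 sets before starvation were 0.17 and -0.06. List by list, the Msn2/4-type genes had a median of 0.65 before and 0.75 after starvation, with 3 called before. Pheromone and mating genes had a larger median before starvation (0.61) than after it (0.20), with 2 called before. Ribosome biogenesis genes had medians of 0.00 and -0.57, ribosomal protein genes 0.06 and -0.65, aminoacyl-tRNA synthetase genes 0.00 and -0.89, and nitrogen genes 0.15 and 0.85, with none of these lists' members called before.

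**Figure D4:**
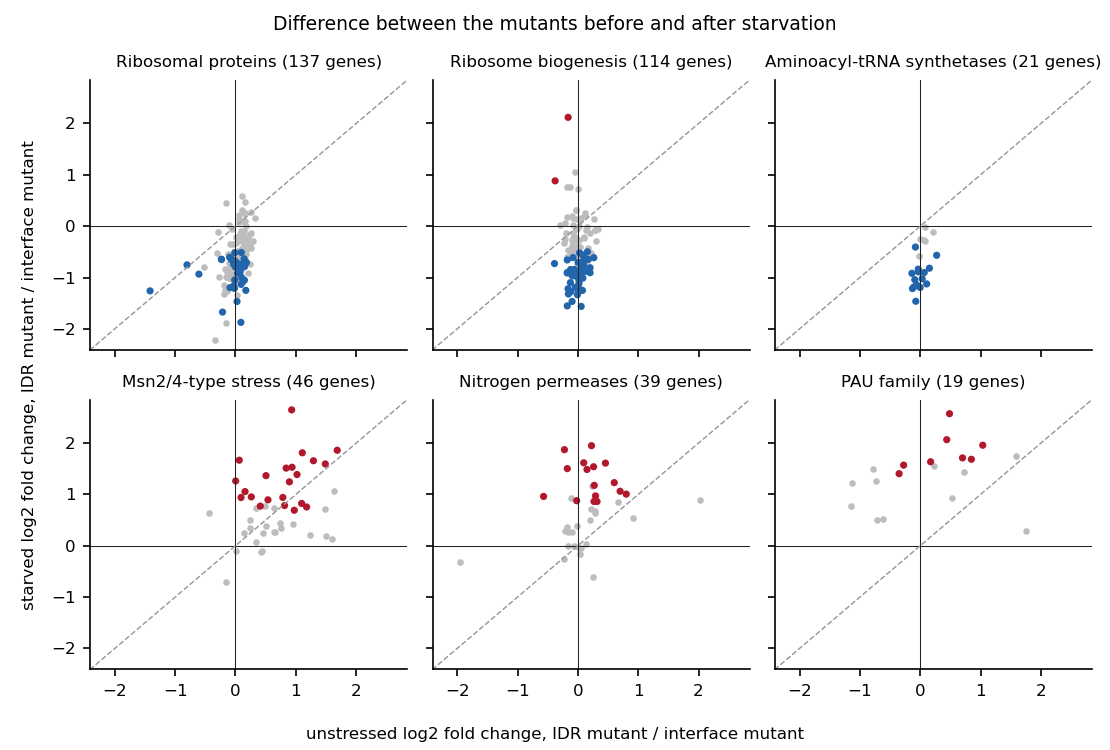
Log2 fold change of the IDR mutant over the interface mutant before starvation (horizontal) and after it (vertical) for the genes of 6 lists, 1 point per gene, with genes called after starvation in red (higher) or blue (lower) and the dashed line marking equal differences. Ribosome biogenesis and synthetase genes spread downward at about 0 on the horizontal axis, and Msn2/4-type genes lie to the right of 0 already before starvation.

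Whether the difference between the mutants itself changed with starvation was tested as an interaction in the same fit. It was called for 129 genes (2.2%), 55 (0.94%) with a more positive and 74 (1.26%) with a more negative difference after starvation. RPA190 changed from 0.03 ± 0.11 before to -1.32 ± 0.11 after starvation (interaction -1.35 ± 0.16, edgeR adjusted p = 0.0143). SSA4 changed from 0.84 ± 0.16 to -1.03 ± 0.16 (interaction -1.87 ± 0.23, edgeR adjusted p = 0.0143), so its order reversed. UGA4 changed from -0.22 ± 0.23 to 1.87 ± 0.17 (interaction 2.09 ± 0.29, edgeR adjusted p = 0.0218). Negative interactions were called for 9 ribosome biogenesis, 5 ribosomal protein and 5 synthetase genes, and positive ones for 5 nitrogen genes. The calls of this test hung on single libraries. Without any 1 of the 4 unstressed mutant libraries or of the 2 starved IDR mutant libraries it called no gene (691 to 815 at an unadjusted p under 0.05). Without starved interface mutant replicate 1 it called 144 genes and without replicate 2 it called 12. Without unstressed wild type replicate 1 it called 1422, and DESeq2 called 473.

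In the nuclear extracts of starved cells no gene was called between the libraries labelled IDR mutant and interface mutant (0 of 6086, 0%, edgeR), with 45 at an unadjusted p under 0.05 and 0 called by DESeq2. In simulated data this test recovered 29% of genes changed by 1 on the log2 scale and 89% of those changed by 2, so smaller differences may go uncalled. The changed genes did not include those of the lowest levels, which these rates do not cover. The test used 3 libraries labelled IDR mutant and 2 labelled interface mutant, since 2 nuclear libraries had under 0.2 of the median depth. In the fit with all 5 libraries, 21.7% of the 607 higher genes had a positive difference in the nuclear libraries, 90.1% of the 577 lower genes did, and 50.1% of all genes. The mean log2(CPM + 1) of the higher genes minus that of the lower genes was 0.446 and 0.568 in whole cells of the starved IDR mutant, and -1.524 and -1.309 in those of the starved interface mutant. In nuclear libraries it was -0.442, -0.604 and 0.725 for those labelled IDR mutant replicates 1 to 3, and 0.623 and -0.074 for those labelled interface mutant replicates 1 and 2. Replicate 3 labelled IDR mutant and replicate 1 labelled interface mutant were thus the nuclear libraries with the highest values, above the other 3. Without the former the nuclear test called 0 genes in the edgeR fit (537 at an unadjusted p under 0.05), and without the latter also 0 (400). The shares of positive differences also hung on the latter library, in an alternative added after seeing the data that used differences of mean log2(CPM + 1) with no further scaling. With all 5 libraries these were positive for 35.1% of the higher genes, 95% of the lower genes and 64.6% of all genes tested. Without interface mutant replicate 1 they were positive for 54%, 62.7% and 50.1%, and without both libraries for 44%, 87% and 58.8%. No nuclear direction is therefore read from these labels, and whether a label is wrong was not tested.

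**Figure D5:**
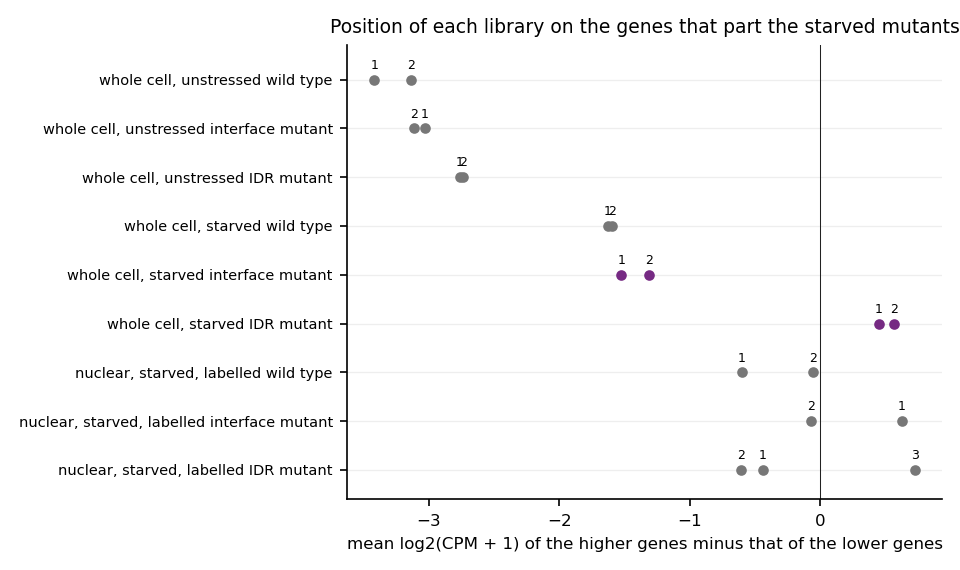
Mean log2(CPM + 1) of the 607 higher genes minus that of the 577 lower genes in each library, with replicate numbers above the points; the 4 compared libraries (dark purple) were used to choose the genes. Starved wild type (-1.626 and -1.594) lies beside the starved interface mutant, and the nuclear libraries labelled with either mutant lie on both sides.

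Base composition moved with the libraries. It was taken over whole gene features, for 5158 tested genes with a mean of at least 10 CPM over the 4 starved mutant libraries. The percent of adenine had a Spearman correlation of 0.526 with the log2 difference between the starved IDR mutant libraries (replicate 1 minus 2). The correlation was 0.459 for the starved interface mutant libraries and -0.139 for the starved wild type libraries. For cytosine the correlations with these replicate differences were -0.441, -0.482 and 0.119 in the same order. With the difference between the mutants, adenine had a correlation of -0.192 and cytosine one of 0.358. For both bases this was smaller in size than between the replicates of either mutant. The median gene called higher in the IDR mutant had 30.7% adenine and 20.3% cytosine, the median lower gene 33.6% and 17.6%, and the median of all genes 32.6% and 18.8%. Among the lists, ribosome biogenesis genes had 35.2% adenine and PAU genes 25.6%, while ribosomal protein genes had 32.7% and synthetase genes 31.3%. In cytosine, ribosome biogenesis genes had 16.7%, synthetase genes 18.3%, ribosomal protein genes 18.4% and PAU genes 29.2%. The correlations are across genes, which are not independent replicates, and are given as a description, and the part of base composition in the results was not tested.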

How the data were processed

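Poly(A) RNA was sequenced from 12 whole cell and 9 nuclear libraries. Raw counts per gene were made by the authors with featureCounts 2.0.1, per the file headers, from reads on the reverse strand, with multiply aligned reads and fractional counting allowed, over 6600 gene features (annotation R64-2-1 for the whole cell libraries). Every deposited count was whole. The submitters' processing notes name cutadapt and TopHat2, with no versions. Depth is the sum of gene counts, and CPM is relative to it.

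The 12 whole cell libraries were fitted in 1 model with a term per group, after filterByExpr (minimum count 10), with TMM scaling and the quasi-likelihood F test of edgeR 4.0.16 (limma 3.58.1, R 4.3.3). P-values were adjusted by Benjamini-Hochberg over all genes tested, and a gene was called at an adjusted p under 0.05. Nuclear libraries were fitted separately, without 2 libraries under 0.2 of the median depth. The procedure was tested on simulated data. Genes of the lowest levels were left out when the changed genes were drawn, so the rates below do not cover them. The comparison of starved mutants recovered 48% of genes changed by 1 on the log2 scale and 97% of those changed by 2. The interaction recovered 8% and 77%, and the nuclear test 29% and 89%. DESeq2 1.42.0, RLE scaling, no filter, a replicate block, fewer libraries and libraries left out in turn were the alternatives.

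The libraries compared, the lists and the tests were chosen with earlier results of these data known. The 4 lists on initiation factors, synthetases, tRNA modification and thiamine, and the 3 promoters, were chosen after their values were seen. The text names NAB2 and marker genes, the 15 largest rises and falls with at least 10 CPM in 1 group and no overlap, the called members with the lowest adjusted p in each list (at most 3), genes whose call held with each library left out, and the 5 largest interactions. Other list members, mostly ones that did not pass, were chosen after their values were seen. Of the features, 5917 matched the R64 reference by locus name, 5888 at the same position. 2 list names (ARG5,6 and DUR1,2) were not found.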

Additional observations from a re-analysis of the deposited data

Results flagged for a closer look

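The difference between the mutants changed with starvation in 129 genes by the interaction test of edgeR, which is what marks them for a closer look. The 5 largest changes were upward. The interaction was 3.55 for EAF7, which stood at 129.8 and 142 CPM in the unstressed IDR mutant, 174 and 154 in the unstressed interface mutant, 111 and 95.0 in the starved IDR mutant and 17.5 and 4.30 in the starved interface mutant (edgeR adjusted p = 0.0396). For ASF1 it was 3.39, with 116 and 135, 176 and 158, 16.2 and 11.1 and 2.84 and 0.693 CPM in the same order (edgeR adjusted p = 0.0343). Both genes were lower in starved than in unstressed libraries of each mutant, and lower still in the interface mutant, most of all in its replicate 2.

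For FDH1 the interaction was 2.75, with 1.94 and 0.758 against 1.495 and 1.087 CPM before and 238 and 222 against 29.7 and 38.3 after starvation. YDL218W had an interaction of 2.61, with 2.69 and 2.75 against 4.06 and 2.45 CPM before and 23.2 and 30.2 against 4.403 and 6.237 after. DCG1 had one of 2.57, with 1.83 and 2.08 against 4.59 and 5.71 CPM before starvation and 10.289 and 12.022 against 5.25 and 4.85 after, so that its order reversed. In these 3 genes the values of the IDR mutant are given first, and the edgeR adjusted p was 0.0347, 0.0372 and 0.0249.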

How the results depend on the processing

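The count between the starved mutants was 1184. It moved to 2251 with only the 6 starved libraries and to 2724 without unstressed wild type replicate 1, and ranged from 207 to 836 with 1 compared library left out. It was 1180 with RLE scaling, 1485 with DESeq2, 1116 without the filter and 1605 with only the 4 libraries. The interaction count of 129 moved to 473 with DESeq2, 1208 with only the 8 mutant libraries and 1422 without unstressed wild type replicate 1 (added after seeing the data), and ranged from 0 to 144 with 1 library left out. It was 125 with RLE scaling and 90 without the filter. The nuclear count was 0 under all 10 alternatives. Of 251 named genes called, none reversed under any alternative. Most of them were named because their call held with each library left out, so their stability was largely fixed by that choice. The cause of these shifts was not tested.

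The replicate numbers in the titles were also fitted as a replicate block, which gave 1130 genes for the starved mutants, 20 for the interaction and 0 for the nuclear test, with 2 of the 251 named genes lost. The samples share only a number: the difference of replicate 1 minus 2 correlated across genes at 0.326 between the starved mutants and at -0.528 to 0.332 over the other pairs of groups. Features with too few counts, 5853 of 6600 being tested, could not be compared at this depth.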

Other observations

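Of 29 sterol synthesis genes, 8 were lower and 1 higher in the starved IDR mutant (median -0.23), 0 to 2 with 1 compared library left out and 10 without unstressed wild type replicate 1 for the lower ones. Of 38 respiratory chain and ATP synthase genes, 1 was lower and 2 higher, and 31 had a negative log2 fold change. None of the 10 histone genes and none of the 7 mitochondrial genome features were called by edgeR. Over all genes tested, 10.4% were higher and 9.86% lower. Beside these, 5.26% of the respiratory genes were higher and 8.33% of the P-body and stress granule genes were lower. Of 36 P-body and stress granule genes, 3 were lower (0 to 2 with 1 compared library left out) and none higher. Of 26 genes of endoplasmic reticulum folding, 4 were lower (0 to 1) and 1 higher.

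Of 30 multidrug resistance genes 8 were higher and 2 lower, with 1 to 5 higher when 1 compared library was left out. Of 46 cell wall genes 10 were higher (2 to 10 on leaving out a library) and 4 lower (0 to 2). Of 32 peroxisome and fatty acid oxidation genes 6 were higher (0 to 5) and none lower, and of 37 autophagy and vacuolar protease genes 8 were higher (1 to 3) and 1 lower. ATG41, an autophagy gene, stood at 916 and 918 CPM in the IDR mutant against 266 and 249 in the interface mutant (1.91 ± 0.22, edgeR adjusted p = 0.00143). Of 41 Snf1 and glucose signalling genes 7 were higher (3 to 5) and 1 lower. NRG1, a repressor under glucose control, stood at 149 and 135 against 54.0 and 67.5 CPM (1.30 ± 0.16, edgeR adjusted p = 0.00201), and TPK3, a catalytic subunit of protein kinase A, at 30.3 and 25.5 against 71.7 and 64.9 CPM (-1.22 ± 0.18, edgeR adjusted p = 0.00339). Of 33 cyclin and replication genes 3 were higher (9.09%) and 5 lower (15.2%). Of 17 genes of the tricarboxylic acid cycle 1 was higher and 1 lower (5.88% each). Of 25 anaerobic and mannoprotein genes 5 were higher (20%) and 2 lower (8%), and of 25 phosphate and zinc genes 5 (20%) and 1 (4%). In these lists, counts of 3 or more fell with any 1 compared library left out, except for the higher cell wall genes, which reached 10 again. Over all genes tested 10.4% were higher and 9.86% lower, so shares near these are no result about a list.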
